A study of Mus musculus with 14 samples.

Results

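The genes examined in whole mouse colon were 10 markers of T lymphocytes and of the cytotoxic program: the CD3 subunits Cd3d, Cd3e and Cd3g, the coreceptors Cd4, Cd8a and Cd8b1, the transcription factor Foxp3, the interleukin-2 receptor beta chain Il2rb, and the granzymes Gzma and Gzmb. They were found on the array through the RefSeq accession of each probe. Of the 10 genes, 9 had a probe, with 11 probes in all out of 41174. Cd8b1 was matched by no accession and was not analysed here. Too dim to test were 2 of the 11 probes, among them the only Foxp3 probe, which left 8 genes and 9 probes among the 15540 genes with a tested probe.

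CD3 delta, epsilon and gamma are signalling subunits of the T cell receptor complex at the cell surface. CD4 marks helper and regulatory T cells, CD8 alpha marks killer T cells and many intraepithelial lymphocytes of the gut, and Foxp3 is the defining factor of regulatory T cells. Activated killer T cells and natural killer cells respond to interleukin-2 and interleukin-15 through the beta chain and kill by releasing granzymes, and natural killer cells carry Il2rb, Gzma and Gzmb without a surface CD3 complex.

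Colon RNA came from C57BL/6 female mice, 4 to 6 months old and on chow diet, and was hybridised to Agilent 1-colour arrays, with 1 colon an array. Flox mice carry loxP sites in the glucocorticoid receptor gene Nr3c1, and GR iKO mice have in addition a Villin-Cre transgene that deletes it in the intestinal epithelium from development on, so that lymphocytes and all other cells of the colon keep the receptor. The 4 groups were Flox on regular water (4 arrays), GR iKO on regular water (4 arrays), Flox given 2.5% dextran sodium sulfate (DSS), which injures the colonic epithelium, in the drinking water for 7 days (3 arrays), and GR iKO given the same DSS water (3 arrays). The comparisons address what DSS colitis does to these genes in each genotype, and whether loss of the epithelial receptor alters them with or without colitis.

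All levels below are log2 intensities relative to the 75th percentile of the same array, so that 0 is the level of that percentile and a difference of 1 is a doubling against it. They rank the arrays for 1 probe and not the genes against each other. The brightest Nr3c1 probe stood at 1.19 ± 0.14 on Flox water arrays and 0.39 ± 0.16 on GR iKO water arrays (SD, n = 4 each). That is 57.3% of the Flox level (two-sided exact permutation p = 0.0286, the lowest possible with 4 and 4 arrays). With DSS water it was at 56.1% (exact permutation p = 0.1, the lowest possible with 3 and 3). The other Nr3c1 probes differed by -0.88, -0.845 and -1.07 on water and by -0.81, -0.86 and -0.40 on DSS, in the same order. The genotypes overlapped at the -0.845 on water and at the -0.40 on DSS. The 75th percentile lay at an intensity of 262 to 1003 and the share of probes well above background at 62.6% to 71.2%, with the Flox DSS array of replicate 4 the lowest in both. DSS arrays varied more than water arrays, with a median replicate SD over all tested probes of 0.34 against 0.19 and a larger SD at 82.9% of probes. Il2rb, Gzma and Gzmb went the other way, with replicate SDs of 0.20, 0.90 and 0.45 on DSS against 0.31, 0.97 and 0.73 on water. The 4 groups occupied the same position on every slide, so position and genotype or treatment cannot be told apart. In whole tissue, fewer cells of a type and less RNA per cell cannot be told apart either.

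RefSeq promoters are shown for 5 of these genes: the CD3 genes, which are neighbours and of which only a pair moved together from array to array, and the granzymes, of which Gzma was called higher with DSS in both genotypes and Gzmb in GR iKO. Promoter entries were found for 7 of the 10 genes. Cd3g, Cd3d and Cd3e follow each other on chromosome 9 with 0 protein-coding genes between them. Cd3g and Cd3d are read outward from starts 1355 bases apart, whereas the start of Cd3e lies 27825 bases from that of Cd3d. The 250 bases before each start are given 5′ to 3′ on the gene's own strand (build GRCm38.p6), with capitals at matches, on either strand, to the RUNX motif TGTGGT, the AP-1 motif TGANTCA, the STAT motif TTCNNNGAA and the E-box CAGNTG.
Cd3g (chr9:44980432-44980681, minus strand): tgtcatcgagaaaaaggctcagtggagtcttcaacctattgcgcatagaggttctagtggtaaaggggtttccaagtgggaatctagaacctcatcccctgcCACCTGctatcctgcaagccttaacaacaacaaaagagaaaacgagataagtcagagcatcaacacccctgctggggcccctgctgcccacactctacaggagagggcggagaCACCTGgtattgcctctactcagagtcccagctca
Cd3d (chr9:44981536-44981785, plus strand): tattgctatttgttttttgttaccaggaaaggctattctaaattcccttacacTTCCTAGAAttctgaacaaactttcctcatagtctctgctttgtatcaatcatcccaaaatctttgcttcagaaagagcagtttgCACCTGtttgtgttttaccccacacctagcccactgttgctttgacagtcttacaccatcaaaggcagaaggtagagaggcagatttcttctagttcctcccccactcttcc
Cd3e (chr9:45009612-45009861, minus strand): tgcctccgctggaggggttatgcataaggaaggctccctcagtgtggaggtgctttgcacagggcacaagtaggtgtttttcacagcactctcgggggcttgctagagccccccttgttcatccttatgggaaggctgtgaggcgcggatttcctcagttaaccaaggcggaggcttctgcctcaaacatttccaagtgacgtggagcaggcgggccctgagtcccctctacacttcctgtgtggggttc
Gzma (chr13:113100982-113101231, minus strand): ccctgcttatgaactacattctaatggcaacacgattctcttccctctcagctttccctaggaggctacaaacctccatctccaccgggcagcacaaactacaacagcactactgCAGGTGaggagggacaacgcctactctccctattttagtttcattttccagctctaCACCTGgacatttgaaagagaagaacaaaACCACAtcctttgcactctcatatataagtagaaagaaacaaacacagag
Gzmb (chr14:56262335-56262584, minus strand): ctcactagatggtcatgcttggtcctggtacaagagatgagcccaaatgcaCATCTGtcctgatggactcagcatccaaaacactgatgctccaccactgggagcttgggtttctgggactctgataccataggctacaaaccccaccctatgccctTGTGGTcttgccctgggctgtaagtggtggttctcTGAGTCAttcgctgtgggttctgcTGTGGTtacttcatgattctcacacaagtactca

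The Gzmb window held 2 RUNX matches, 1 AP-1 match and 1 E-box, and the Gzma window 1 RUNX match and 2 E-boxes. Among all 32851 promoter windows of this length, 14% held a RUNX match, 6.7% an AP-1 match, 7.0% a STAT match and 44.8% an E-box. Cd3g held 2 E-boxes, Cd3d 1 E-box and 1 STAT match, and Cd3e none of these letters. No matches of different motifs overlapped. These matches describe the letters only.

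In Flox mice DSS raised Il2rb and Gzma relative to the rest of the array, though both values turn negative when arrays are scaled to spike-in control transcripts, while the CD3 genes, Cd4, Cd8a and Gzmb did not pass the test. Of the 8 tested genes, 2 were called higher and 0 lower (limma, Benjamini-Hochberg adjusted p under 0.05 over all tested probes), where 24.4% of all tested probes were called higher and 28.2% lower. The median difference was 0.03 over the 8 genes and -0.09 over all probes. The share of members called higher was thus close to that of all probes, and the share called lower was below it. The split of member calls was 1 higher and 1 lower with quantile normalization, 2 and 1 with array median scaling, 5 and 0 with normexp, and 0 and 7 with spike-in scaling. Over all probes the higher share of the calls was 46.4%, and it was 65% with normexp and 1.18% with spike-in scaling. Under spike-in scaling the median of all probes itself moved to -2.45 and Il2rb stood at -1.60, which is 0.85 above that median.

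In GR iKO mice DSS raised Il2rb, Gzma and Gzmb, and again no CD3 gene, Cd4 or Cd8a passed. That was 3 of 8 genes called higher and 0 lower, against 22% of all probes called higher and 22.5% lower. The higher share of all calls was 49.4%, and 6.57% with spike-in scaling. All 8 genes had a positive difference, with a median of 0.50 against -0.02 over all probes. Scaled to the spike-ins, all probes had a median of -0.98, the CD3 genes, Cd4 and Cd8a turned negative without a call, and Gzmb alone stayed past the threshold at 1.72 (adjusted p = 0.0125).

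Il2rb, the signalling chain shared by the interleukin-2 and interleukin-15 receptors, had the smallest replicate SDs of the 8 genes, 0.31 on water and 0.20 on DSS. On Flox water arrays it stood at -2.31, -2.14, -1.81 and -1.34, and on GR iKO water arrays at -1.80, -1.76, -1.98 and -1.92. With DSS it stood at -1.24, -0.96 and -1.21 in Flox and at -0.24, 0.07 and -0.41 in GR iKO. All 3 Flox DSS arrays were above all 4 Flox water arrays, and all 3 GR iKO DSS arrays were above every other array.

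DSS raised Il2rb by 0.76 in Flox (SE 0.20, adjusted p = 0.00755), that is 1.70-fold. The rise in GR iKO was 1.67 (SE 0.20, adjusted p = 5.98e-05), that is 3.18-fold. Water and DSS arrays were likewise apart, with DSS higher, at 25.8% of all probes in Flox and 22.6% in GR iKO. Within the 3 slides that held both Flox groups, the Il2rb rise was 1.07, 1.18 and 0.13, the last on the slide with the Flox water array of replicate 4 and the Flox DSS array of replicate 4. Within the 3 slides of GR iKO it was 2.04, 1.56 and 1.50.

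**Figure D1:**
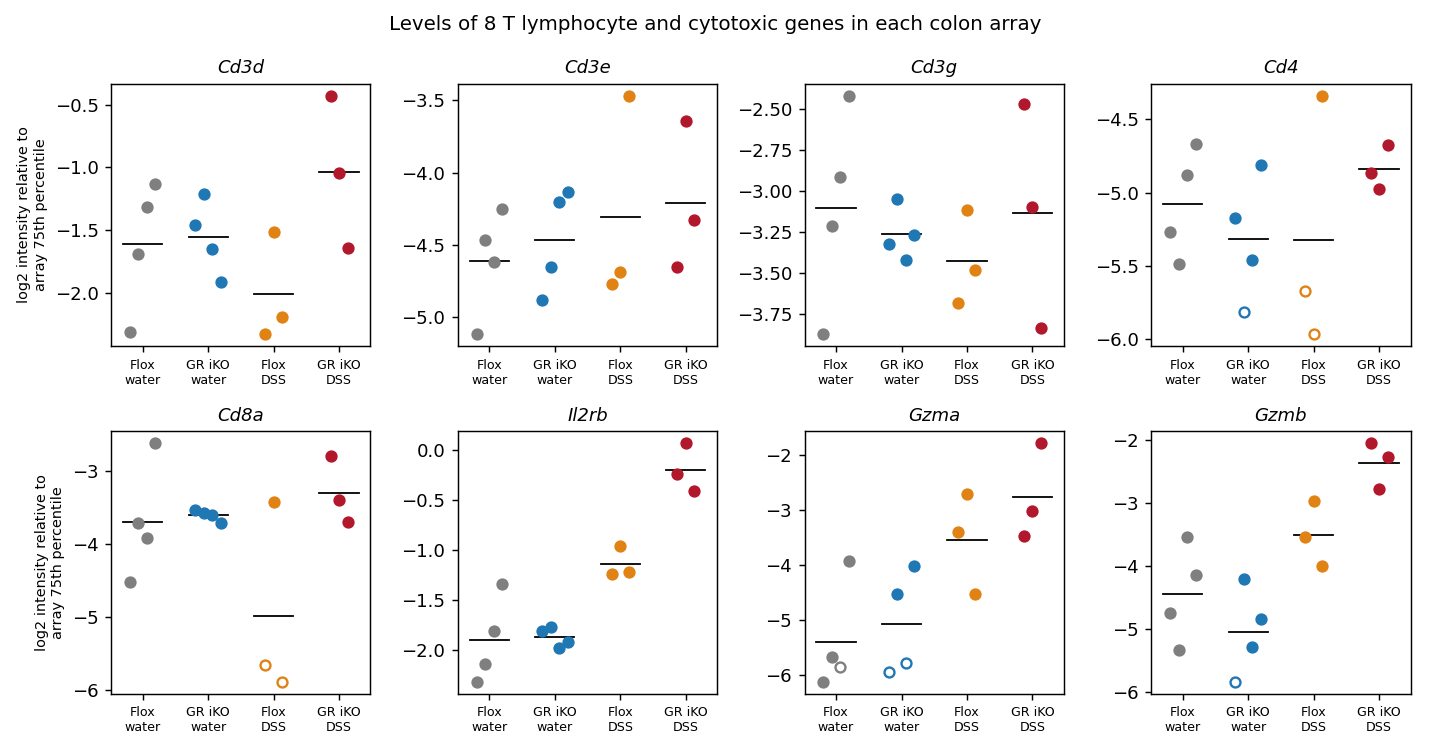
Level of 8 genes in each of the 14 colon arrays, as log2 intensity relative to the array's 75th percentile (vertical axis, own range for each gene) in the 4 groups (horizontal axis). Each point is 1 array, the line is the group mean, and open points were not well above background; on this scale all genes except Cd3g are highest on average in GR iKO DSS, Il2rb without overlap with any other group, and the CD3 genes overlap between all groups.

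Gzmb, granzyme B, the protease that triggers death of the target cell, was also highest in GR iKO DSS, with a wider spread between arrays. Its levels were -4.74, -5.32, -3.54 and -4.14 on Flox water and -5.83, -4.19, -5.28 and -4.84 on GR iKO water, the first of these 4 not well above background. With DSS they were -3.53, -2.96 and -4.00 in Flox and -2.05, -2.78 and -2.27 in GR iKO. The Flox groups overlapped, because the Flox water array of replicate 3 reached the Flox DSS range, whereas every GR iKO DSS array lay above every GR iKO water array.

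The rise of Gzmb in GR iKO was 2.67 (SE 0.45, adjusted p = 0.000501), or 6.37-fold, and stood at 2.51, 3.78 and 2.57 within the 3 slides. In Flox the difference was 0.93 (SE 0.45, adjusted p = 0.0957), with a 95% interval from -0.03 to 1.90. Without the Flox water array of replicate 3 it was 1.23 (adjusted p = 0.0336). The call in GR iKO was kept under all 27 alternatives, with differences from 1.44 to 2.95 and adjusted p from 9.60e-05 to 0.0125.

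Gzma, granzyme A, a tryptase of the same granules, was near the detection limit without DSS. It stood at -6.13, -5.68, -5.86 and -3.94 on Flox water and at -5.96, -4.54, -5.79 and -4.03 on GR iKO water, where 3 of the 8 arrays were not well above background. On DSS the levels were -3.40, -2.71 and -4.54 in Flox and -3.48, -3.03 and -1.79 in GR iKO, all well above background. The Flox groups overlapped through the high water array of replicate 4, and the GR iKO groups did not overlap.

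The Gzma rise was 1.85 in Flox (SE 0.65, adjusted p = 0.0309), or 3.61-fold. It was 2.31 in GR iKO (SE 0.65, adjusted p = 0.0126), or 4.96-fold. The Flox call was not firm: the call was lost when the Flox water array of replicate 1, 2 or 3 or the Flox DSS array of replicate 1 or 2 was left out, at adjusted p = 0.0784, 0.0647, 0.0719, 0.0824 and 0.127. With spike-in scaling the Flox value turned to -0.51. The GR iKO call was lost without the GR iKO DSS array of replicate 4, where the difference was 1.82 (adjusted p = 0.0606).

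The CD3 genes did not pass the test in any comparison. Cd3d stood at -2.31, -1.69, -1.31 and -1.13 on Flox water, at -1.46, -1.21, -1.65 and -1.91 on GR iKO water, at -2.33, -1.51 and -2.19 in Flox DSS, and at -0.43, -1.04 and -1.64 in GR iKO DSS. The groups overlapped throughout, although 2 of the 3 highest arrays were GR iKO DSS and 2 of the 3 lowest were Flox DSS. The DSS difference of Cd3d was -0.40 in Flox (95% interval -1.12 to 0.32) and 0.52 in GR iKO (-0.20 to 1.25).

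Cd3g, whose levels ran from -3.87 to -2.42 on water and from -3.84 to -2.47 on DSS, had DSS differences of -0.32 in Flox and 0.13 in GR iKO. Cd3e, with levels from -5.12 to -4.13 on water and from -4.77 to -3.47 on DSS, had differences of 0.30 and 0.26. The intervals of these 4 differences reached from -1.06, for Cd3g in Flox, to 1.06, for Cd3e in Flox. Changes within the interval of each difference were thus not excluded.

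Within groups, Cd3d and Cd3g rose and fell together from array to array and Cd3e did not follow. Over the 14 arrays, the deviations of Cd3d and Cd3g from their group means had r = 0.93 and rho = 0.88, and r = 0.89 without the 2 arrays farthest from the median of Cd3d. For Cd3d and Cd3e they were r = -0.06 and rho = -0.01, and r = -0.14 without the 2 farthest. Cd8a deviated with Cd3d at r = 0.77 and rho = 0.83, and Il2rb with Cd3g at r = 0.77 and rho = 0.85, the latter falling to 0.53 without 2 arrays. Gzma and Gzmb gave r = 0.49 and rho = 0.50. These values are descriptions, since the arrays share slides and 1 scaling factor an array.

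**Figure D2:**
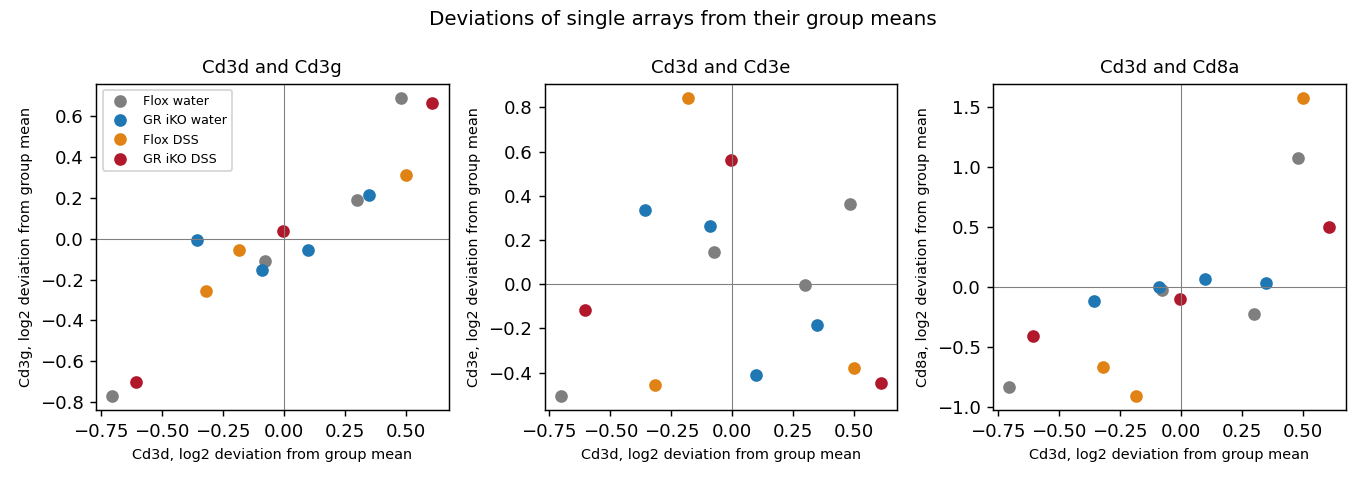
Deviation of each of the 14 arrays from its group mean, in log2 units, for Cd3g, Cd3e and Cd8a (vertical axes) against Cd3d (horizontal axes), with 1 point an array and colours for the 4 groups. Cd3g follows Cd3d (r = 0.93), Cd3e does not (r = -0.06), and Cd8a follows less closely (r = 0.77).

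Among 15461 other genes with 1 tested probe each, those most like the mean of the 3 CD3 genes in these deviations were Limd2 (r = 0.94), Pira2 (0.92), Spic (0.91), Gimap4 (0.91) and Klhl6 (0.90). Those most like the mean of Gzma and Gzmb were Nkg7, a granule protein of killer cells (r = 0.91), Htr7 (0.90), Cd74 (0.87), H2-Ab1 (0.86) and Ccpg1os (0.85). Cd74 and H2-Ab1 serve antigen presentation on class II molecules. The B cell and plasma cell markers, as a mean of 7 genes, moved with the CD3 mean at r = 0.70 and rho = 0.84 (0.66 without 2 arrays). This was not particular to B cells. Means of other lists given below had r = 0.89 (T cell receptor and identity), 0.84 (intraepithelial lymphocyte), 0.76 (dendritic cell) and 0.64 (pan-leukocyte). The order depended on the CD3 gene. For Cd3d, Cd3g and Cd3e taken singly, r was 0.48, 0.56 and 0.53 with the B cell list. With the pan-leukocyte list it was 0.90, 0.85 and -0.29.

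Set against the CD3 genes of the same array, the granzymes and Il2rb were higher on every DSS array. Each gene's change from its water mean, minus the mean change of Cd3d, Cd3e and Cd3g, was 0.61 to 1.13 for Il2rb in Flox DSS and 1.06 to 1.64 in GR iKO DSS, where the 8 water arrays lay between -0.24 and 0.23. For Gzmb it was 0.68 to 1.78 in Flox DSS and 1.45 to 2.63 in GR iKO DSS, and -0.98 to 1.04 on water. For Gzma it was 0.65 to 2.53 and 1.17 to 3.61, and -0.78 to 1.22 on water. With this reference, only Il2rb was clear of all water arrays on all 6 DSS arrays. The reference includes Cd3e, which did not follow Cd3d (r = -0.06). Without Cd3e the ranges, their overlaps and the genes clear of water would differ. This quantity, in which the scaling of the array cancels, was not tested.

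**Figure D3:**
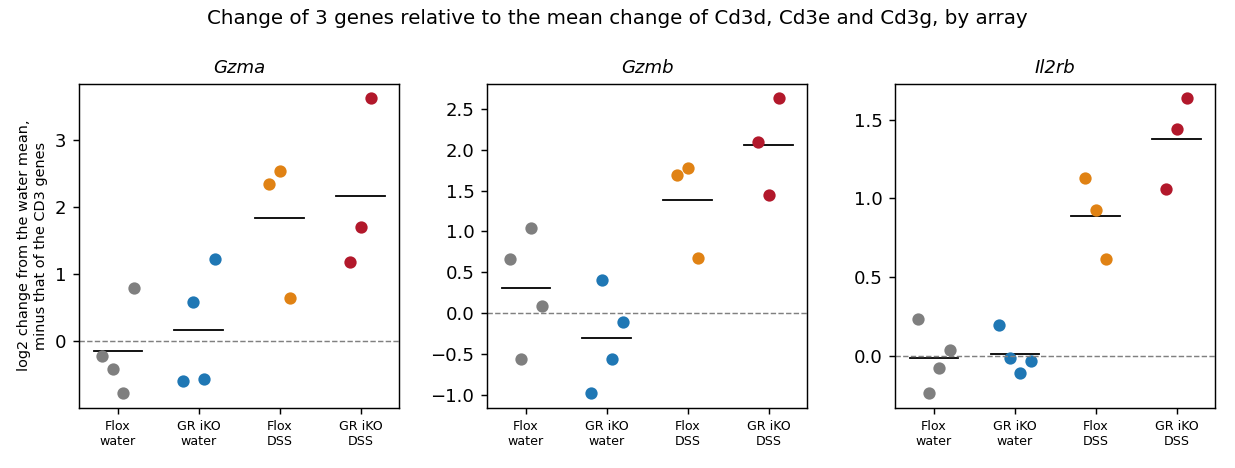
Log2 change of Gzma, Gzmb and Il2rb from their water means minus the mean change of the 3 CD3 genes (vertical axes) on each array of the 4 groups (horizontal axes), with lines at the group means. All 6 DSS arrays lie above 0 for all 3 genes, and for Il2rb they lie above every water array.

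The coreceptors were dim and varied most in Flox DSS. The brightest Cd8a probe stood at -4.52, -3.72, -3.91 and -2.62 on Flox water and at -3.54, -3.57, -3.60 and -3.72 on GR iKO water. With DSS it stood at -5.65, -3.42 and -5.89 in Flox, the first and last not well above background, and at -2.79, -3.39 and -3.70 in GR iKO. Thus 2 of the 3 Flox DSS arrays were below every other array, and the remaining array was within the range of the water arrays. Those 2 were also the dimmest arrays of the series, with 75th percentiles at intensities of 430 and 262. The remaining Flox DSS array stood at 675. The part of array brightness in the low Cd8a values was not tested.

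The Cd8a difference in Flox was -1.29 (SE 0.54, adjusted p = 0.0623), and -2.08 without the Flox DSS array of replicate 2 (adjusted p = 0.00182), which leaves only the 2 Flox DSS arrays not well above background, so that neither size is exact. It also passed without the Flox water array of replicate 1 (-1.57, adjusted p = 0.0368), and it stood at 0.23 after normexp background correction. In GR iKO it was 0.31 (95% interval -0.87 to 1.49). Another Cd8a probe passed the background call on all 4 Flox water arrays and on 0 of 3 Flox DSS arrays. Its difference in Flox was -0.72 and did not pass (limma, adjusted p = 0.159), and the groups overlapped. A bound on the means put Flox water 1.15-fold above Flox DSS, with no allowance for the spread between arrays. The bound sets the Flox water mean against the lowest signal well above background on each DSS array, or the probe's own where higher. The last Cd8a probe was well above background on 1 array only and was not tested.

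Cd4 was well above background on 4 of 4 Flox water arrays (-5.26, -5.49, -4.88 and -4.67) and on 3 of 4 GR iKO water arrays (-5.17, -5.81, -5.46 and -4.81). It was well above background on 1 of 3 Flox DSS arrays (-5.67, -5.96 and -4.34) and on all GR iKO DSS arrays (-4.87, -4.97 and -4.67). The groups overlapped, and the DSS difference in Flox was -0.25 (adjusted p = 0.577) and that in GR iKO 0.48 (adjusted p = 0.296). Without the Flox DSS array of replicate 4 the Flox value was -0.74 (adjusted p = 0.0406), taken against the 2 arrays not well above background and so not an exact size. The Foxp3 probe was not well above background on any of the 14 arrays, where its level lay between -8.53 and -5.81, so no difference is given.

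Without colitis, deletion of the epithelial receptor left no detectable difference in these genes. GR iKO and Flox differed on water by -0.60 for Gzmb to 0.33 for Gzma, and 0 of 8 genes were called (limma, adjusted p = 0.9999 for each). None had an unadjusted p under 0.05. Over all probes, 0.0102% were called, and the medians were 0.04 over the 8 genes and -0.01 over all. For Il2rb the 95% interval was -0.42 to 0.49, and for the granzymes it reached from -1.64 to 1.69, so that their changes are only loosely bounded.

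On DSS, all 8 genes were higher on average in GR iKO than in Flox, and none passed the test with adjustment over all probes. The median difference was 0.86, against 0.03 over all probes. With normexp background correction it was 0.08, with Cd3g and Cd4 at -0.07 and -0.23, and Cd3e stood at -0.37 with a replicate block, so the direction of these 3 genes was not stable. Of the 8 genes, 4 had an unadjusted p under 0.05 and 0 were called, as were 0% of all probes by limma on the 6 arrays, although 4794 probes had an unadjusted p under 0.05. Cd8a differed by 1.69 (95% interval 0.07 to 3.32, adjusted p = 0.294) and by 0.15 with normexp. Its size is not exact, since the probe was well above background on 1 of 3 Flox DSS arrays, whose levels spread from -5.89 to -3.42.

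Il2rb was 0.94 higher in GR iKO DSS (95% interval 0.45 to 1.44, unadjusted p = 0.00311 by limma, adjusted p = 0.226), or 1.92-fold. Gzmb was 1.13 higher (0.34 to 1.93, unadjusted p = 0.0127, adjusted p = 0.229), or 2.19-fold, and 0.37 higher with normexp. For these 2 genes no GR iKO DSS array overlapped a Flox DSS array, as held for 11.2% of all probes in the same direction. On the 2 slides that held both DSS groups the difference was 1.31 and 0.80 for Il2rb and 0.76 and 1.73 for Gzmb. In a fit that shared 1 spread over all 14 arrays, Il2rb was called (adjusted p = 0.0186) and Gzmb was not (adjusted p = 0.133).

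Cd3d differed by 0.98 (95% interval 0.07 to 1.88, adjusted p = 0.283), Gzma by 0.78 (-0.66 to 2.23, and 0.01 with normexp), Cd4 by 0.49 (-0.55 to 1.52), Cd3g by 0.29 (-0.61 to 1.19) and Cd3e by 0.10 (-0.95 to 1.15). The dimmer tested Cd8a probe differed by 0.97 (-0.09 to 2.03, adjusted p = 0.338), and its groups overlapped. The bound on its means was 1.37-fold, with no allowance for the spread between arrays. Several of these genes thus had intervals that held both no difference and a doubling.

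The test of whether the DSS response itself differed between genotypes called 0 of 8 genes, where 0.112% of all probes were called. The difference between the responses was 1.74 for Gzmb (95% interval 0.37 to 3.10, adjusted p = 0.166), 1.60 for Cd8a (-0.06 to 3.27, adjusted p = 0.279) and 0.91 for Il2rb (0.28 to 1.53, adjusted p = 0.125). For Gzma it was 0.46 (-1.55 to 2.47, adjusted p = 0.834) and for Cd3e -0.04 (-1.11 to 1.02). Gzmb passed in GR iKO and not in Flox, but a difference between the genotypes in its response was not shown.

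**Figure D4:**
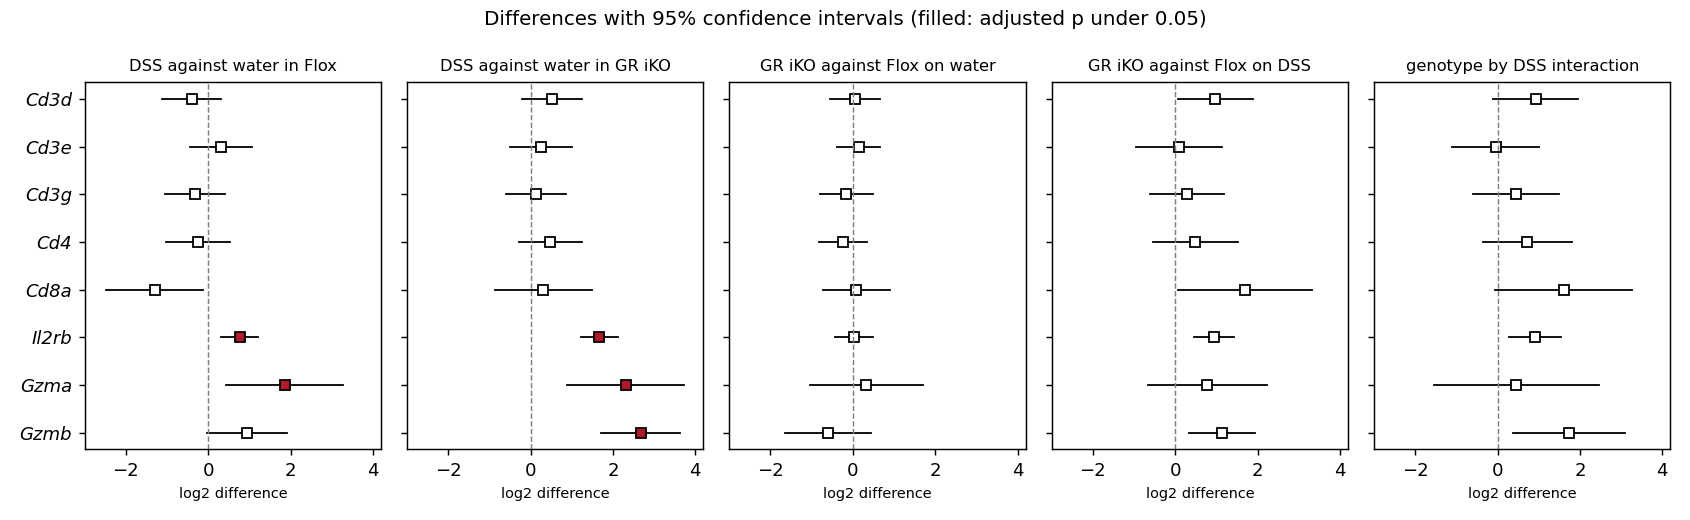
Log2 difference (horizontal axes) of the 8 genes (rows) in 5 comparisons, with 95% confidence intervals; filled squares have an adjusted p under 0.05. Filled squares appear for Il2rb and Gzma in both DSS comparisons and for Gzmb in GR iKO; the Flox values of Il2rb, Gzma and Gzmb turn negative when arrays are scaled to the spike-ins.

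Other genes of the same pathways were counted by list on the scale of the levels above. With spike-in scaling, applied to the lists after seeing the data, the Flox medians of the 5 lists of this kind lay between -2.95 and -1.94, with all probes at -2.45. The counts stand beside the shares of all probes called higher and lower, 24.4% and 28.2% in Flox and 22% and 22.5% in GR iKO. Among T cell receptor and identity genes, 23 of 24 were tested. In Flox DSS 3 were called higher and 6 lower (7 and 3 with normexp), and in GR iKO DSS 6 higher and 3 lower. With spike-in scaling 0 were called higher and 21 lower in Flox, and 2 and 7 in GR iKO. Bcl11b, a factor of T cell commitment, fell by 2.29 in Flox and by 1.95 in GR iKO (adjusted p = 5.19e-06 and 2.60e-05). Lef1, a factor of naive T cells, fell in Flox (adjusted p = 0.000936), with 1 of 3 DSS arrays well above background, so its difference of -2.23 is not an exact size. Cd28, the costimulatory receptor, passed the background call on all 8 water arrays and 0 of 6 DSS arrays (adjusted p = 0.000137 and 0.000326 in the limma fit). A bound on the means put water at 0.97 of the DSS level in Flox, which bounds no fall there. In GR iKO the bound put water 1.399-fold above DSS. Lcp2, an adaptor of the T cell receptor that myeloid cells also use, rose by 2.38 in GR iKO and Gata3, a factor of type 2 lymphocytes, by 2.71 (adjusted p = 0.000102 and 0.00500).

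Of 22 cytotoxic granule and killer cell genes, 14 were tested, and the others, among them Gzmk, Gzme, Gzmf, Ncr1 and Eomes, were too dim. DSS raised 5 in Flox and 8 in GR iKO and lowered 0 in either, with medians of 0.39 and 0.92. The Flox count was 2 with quantile normalization and 10 with normexp, and with spike-in scaling 1 was called higher and 12 lower in Flox, and 2 higher and 1 lower in GR iKO, where the median was -0.04. Ifng, interferon gamma, passed the background call on 0 of 4 Flox water arrays and was called higher with DSS in Flox (limma, adjusted p = 5.10e-05). A bound on the means put Flox DSS 39.97-fold above Flox water on the scale of the levels above. That bound makes no allowance for the spread between arrays or for spike-in scaling. Ifng was also called higher in GR iKO (adjusted p = 1.48e-05), with 1 of 4 water arrays well above background. Its difference of 7.73 there is thus not an exact size. Ccl5, a chemokine of activated T cells, rose by 2.46 in Flox and 4.30 in GR iKO (adjusted p = 0.00311 and 0.000103). Gzmc was called higher in GR iKO (adjusted p = 0.00562), though its probe may also bind close relatives. It passed the background call on 2 of 3 DSS arrays and 0 of 4 water arrays there. Fasl, the death ligand, was called higher in Flox (adjusted p = 0.0110), with 1 of 3 DSS arrays and 0 of 4 water arrays well above background. The sizes of both are not exact.

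Of 11 interleukin-2 and interleukin-15 pathway genes tested, 4 rose and 1 fell in Flox and 7 rose and 2 fell in GR iKO. With spike-in scaling 1 was called higher and 9 lower in Flox, and 2 and 3 in GR iKO. Il2ra, the alpha chain that joins Il2rb in the high-affinity receptor, passed the background call on 0 of 8 water arrays. It was called higher with DSS in Flox and in GR iKO (adjusted p = 7.19e-06 and 3.90e-05), where 2 of 3 and 3 of 3 DSS arrays were well above background. Bounds on the means were 3.33-fold and 3.25-fold, that in Flox including an array not well above background. Socs1, a feedback inhibitor of cytokine receptors, rose by 2.91 in Flox and 3.76 in GR iKO. The ligand Il15 fell by 1.29 and 1.31 (adjusted p = 0.00223 and 0.00264), and Il2 was too dim to test.

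Of 7 regulatory T cell genes tested, 1 rose and 1 fell in Flox and 5 rose and 1 fell in GR iKO. In Flox 4 were called higher and 1 lower with normexp, and 1 and 6 with spike-in scaling, which called 1 and 1 in GR iKO. Gpr83 fell by 2.76 in Flox and by 2.45 in GR iKO, and Il2ra rose as above. Il10, an anti-inflammatory cytokine, was called higher in GR iKO (limma, adjusted p = 0.000876). A bound on its means there was 2.389-fold, with no allowance for the spread between arrays or for spike-in scaling. Of 6 intraepithelial lymphocyte genes, 2 rose and 2 fell in Flox and 3 rose and 1 fell in GR iKO, and with spike-in scaling 0 and 5 in Flox and 1 and 3 in GR iKO were called higher and lower. Itgae, the integrin that holds lymphocytes in the epithelium, fell by 1.56 and 1.01 (adjusted p = 0.00360 and 0.0419), while Fcer1g, also a myeloid gene, rose by 2.32 and 2.83. In none of these lists was a gene called between genotypes on water, between genotypes on DSS or for the difference in response. With spike-in scaling, 16 of the 23 T cell genes and 8 of the 14 cytotoxic genes were called higher in GR iKO than in Flox on DSS, where 5056 of all 29523 probes were called and the median of all probes was 1.26.

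Genes of other cells moved on the same arrays. The 6 pan-leukocyte genes had array means 0.40 to 0.88 above water in Flox DSS and 1.10 to 1.93 above in GR iKO DSS, with 1 and 6 of 6 called higher. The 8 neutrophil markers had means 4.12 to 5.15 and 6.11 to 8.16 above water, with 7 and 8 called. These sizes are not exact, since Mmp8 and Cxcr2 passed the background call on 0 of 8 water arrays and Ltf on 1. Bounds on the Cxcr2 means put DSS 8.34-fold above water in Flox and 18.35-fold above water in GR iKO. These bounds make no allowance for the spread between arrays or for spike-in scaling. The array means of the 10 macrophage and monocyte markers were 0.75 to 1.50 and 1.23 to 2.10 above water. Of 7 dendritic cell markers 0 were called in Flox and 3 were called higher in GR iKO, with array means of -0.38 to 0.26 and 0.39 to 1.16. Of 8 epithelial markers 1 rose and 3 fell in Flox and 1 rose in GR iKO, with means of -0.56 to -0.01 and 0.05 to 0.47. Of 6 mast cell and basophil markers 2 rose and 1 fell in Flox and 0 were called in GR iKO. Of 7 B cell and plasma cell markers, 6 fell in Flox and 1 in GR iKO, with array means of -3.18 to -0.51 and -2.42 to 0.33. Smooth muscle markers rose in Flox, 6 of 6, with means of 0.93 to 1.73, and 0 of 6 were called in GR iKO, with means of -0.73 to 0.53. With spike-in scaling the Flox medians of the pan-leukocyte, macrophage and smooth muscle lists were negative, at -1.86, -1.28 and -1.06, and that of the neutrophil list was 1.99. That scaling called 6 of 6 pan-leukocyte genes lower in Flox and 0 of 6 in GR iKO. The part of these cells in the changes of Il2rb and the granzymes was not tested.

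**Figure D5:**
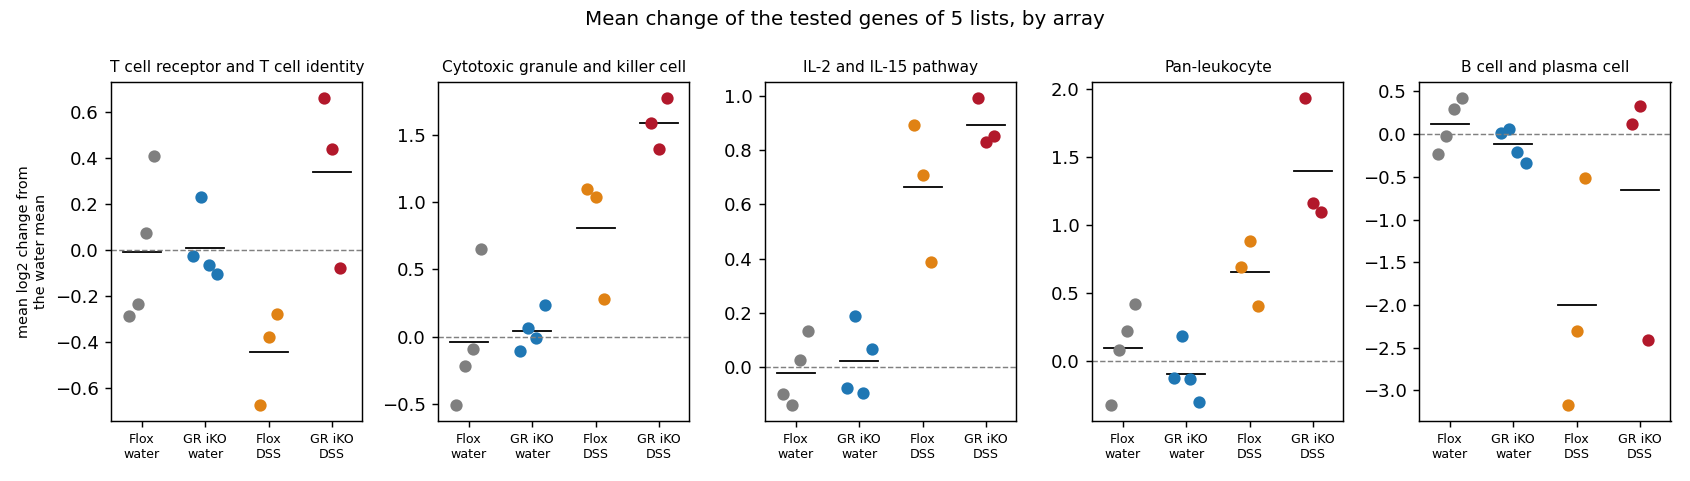
Mean log2 change from the water mean (vertical axes) of the tested genes of 5 lists on each array of the 4 groups (horizontal axes), with lines at the group means. Relative to the array's 75th percentile, cytotoxic genes lie at 0.28 to 1.10 in Flox DSS and 1.40 to 1.78 in GR iKO DSS, T cell receptor and identity genes at -0.68 to -0.28 and -0.08 to 0.66, and B cell markers spread widely on DSS.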

How the data were processed

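RNA from 14 mouse colons had been labelled with Cy3 from 500 ng and hybridised to 4 slides. The authors deposited scanner tables of intensity from Agilent Feature Extraction (12.0.0.7 per the file headers), background-subtracted and not scaled between arrays, and a table of log2 values whose normalization the deposited files do not state. Partek 6.6 is named in the submitters' processing notes. Here log2 of the processed intensity minus the 75th percentile of the array was used. Control spots and outlier flags were left out, spots of a probe were averaged, and probes well above background on at least 3 of 14 arrays were tested (29523 of 41174). Of 29245 probes with a RefSeq accession, 28223 matched a symbol (RefSeq, GRCm38.p6). The brightest probe stood for a gene.

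Tests used limma 3.58.1 in R 4.3.3 with Benjamini-Hochberg adjustment over all tested probes. DSS comparisons and the difference in response used all 14 arrays, and genotype comparisons the 8 water or 6 DSS arrays. The code was tested on simulated data. The mean signal column named for normexp is absent from the scanner tables, so the median signal was used (offset 50). The members and lists were chosen with earlier results of these data known. All members are named, with at most 3 called genes a list and comparison by absolute change, and the 5 genes most like each of 2 means. Alternatives covered background, scaling, filters, weights, arrays in the fit, slide, replicate number and each array left out. The number of arrays limits precision.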

Additional observations from a re-analysis of the deposited data

How the results depend on the processing

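Of 980 values of single genes under alternatives, 935 kept their side of the threshold, 12 lost a call, 27 gained one and 6 reversed, and 21 of those that gained or reversed did so under spike-in scaling. Spike-in probes were brighter on Flox DSS arrays (mean log2 intensity 12.8 to 13.1) than on water arrays (11.2 to 11.9), with GR iKO DSS arrays at 11.8 to 12.4. That scaling moved the median of all probes to -2.45 in Flox, -0.98 in GR iKO, 1.26 between genotypes on DSS and -0.18 on water. The number of the 8 genes called became 7 in Flox, all lower, 1 in GR iKO, 6 between genotypes on DSS and 7 for the difference in response, and all-probe calls became 26435 in Flox (15543 with the main scaling), 5056 between genotypes on DSS (0), and 18759 for the difference in response (33, and 0 to 2221 under the other alternatives). It reversed Cd3e (-2.06), Gzma (-0.51), Gzmb (-1.43) and Il2rb (-1.60) in Flox, Cd3e in the difference in response (1.36), and Nr3c1 between genotypes on DSS (0.40, exact permutation p = 0.6). Against the shifted median, Gzma, Gzmb and Il2rb in Flox stood at 1.94, 1.02 and 0.85. Normexp moved the Flox median to 0.22, reversed Cd4 (0.53, adjusted p = 0.0497) and called 5 genes there. Requiring detection on all arrays, which leaves 4 of the 8 genes, called 1 in Flox and 1 in GR iKO. Separate weights for water and DSS arrays called 1 in Flox, Il2rb (adjusted p = 0.0411), and gave Gzma adjusted p = 0.0981 in Flox and 0.0524 in GR iKO. With quantile normalization Gzma in Flox was at 1.61 (adjusted p = 0.0544) and Cd8a at -1.56 (adjusted p = 0.0393), and the deposited table gave 1.62 and -1.57. All 14 arrays in 1 fit called 1 gene between genotypes on DSS, Il2rb, with 3903 of all probes. Leaving out 1 array gave 1 to 3 called genes in Flox (1 without Flox water replicate 2 or Flox DSS replicate 1), 2 to 3 in GR iKO, and 0 between genotypes. Of all probes, 0 to 7 were called between genotypes on water, against 3. With the mean of all tested probes of a gene, which leaves fewer features, 8622 were called in Flox and 7490 in GR iKO. The cause of these changes was not tested. Replicate numbers did not pair the arrays: deviations of same-numbered arrays correlated at -0.08 to 0.31, and not every array was most like its own number. A replicate block called 2, 3, 0, 0 and 0 genes in the 5 comparisons, as without the block, and so did a slide block. Cd4, Cd8a and Gzma had arrays not well above background, which limits the size of their differences.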
